A study of Oryza sativa Japonica Group with 12 samples.

Results

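Expression of 5 rice NAC transcription factor genes tied to stress and leaf senescence was followed in leaves of plants carrying an artificial microRNA against the chlorophyll synthase gene YGL1. The 5 were taken from the deposited table by locus ID, among 38978 annotated rows, and all 5 had enough counts to be tested. They are NAP (Os03g0327800), NAC6, also called SNAC2 (Os01g0884300), NAC5 (Os11g0184900), SNAC1 (Os03g0815100) and NAC10 (Os11g0126900). The names came with the choice of these IDs, since the table carries IDs only and the RefSeq gene table used holds none of the 5.

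NAC proteins are a large plant family that binds DNA through a conserved N-terminal domain and switches genes on or off through a variable C-terminal part. In rice, a subgroup called stress-responsive NACs is induced by drought, salt, cold and abscisic acid, the hormone of water shortage. Senescence, the ordered dismantling of an ageing leaf, is driven partly by the same family, and NAP is a known rice activator of genes for chlorophyll breakdown and nutrient export.

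Leaves of field-grown Nipponbare, a japonica cultivar, were sampled at 10 in the morning, and total RNA was sequenced in 12 libraries. Line7 (transgenic line 7, n = 4) and Line8 (transgenic line 8, n = 4) were homozygous lines of the cultivar that express the microRNA from the 35S promoter, which is active in most tissues, and WT (n = 4) was the unmodified cultivar. No group carried a control construct, each line is a single transgenic line, and the season of a library is not assigned. Whether replicates came from separate plants is unstated, so the spread behind each p-value may be technical. In RNA from whole leaves, fewer cells of a type and less RNA per cell cannot be told apart.

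Library totals ran from 14746933 to 19822636 counts. Levels are given as CPM, the read count over the TMM-scaled library size, and 20217 rows were abundant enough to test. Os05g0349700, the locus ID written down for the microRNA's target (an ID without a name in the files), was at 34.4, 68.1, 27.4 and 27.8 CPM in Line7 replicates 1 to 4, at 26.1, 33.4, 23.8 and 24.0 CPM in Line8, and at 57.7, 44.2, 47.8 and 69.1 CPM in WT. The library labelled Line7 replicate 2 thus held a WT-like target level. It also lay among WT over all rows, with a score of -75.3 on the first principal component against -85.2 to -62.2 in WT and 25.4 to 84.8 in the remaining 7 line libraries. The Line7 fold changes and counts of calls are therefore given with and without it. That library was picked out from these same data for being WT-like. Leaving it out therefore tends to widen gaps to WT, and p-values without it are not separate support. WT replicate 1 and Line8 replicate 3 stood apart on the second component, at 61.1 and 113. Of 4 locus IDs written down as green-leaf genes, none had fewer than 1133 counts in any library, and their summed level was 30440 to 38640 CPM in Line7, 18690 to 46070 CPM in Line8 and 38550 to 52350 CPM in WT. The most abundant IDs rule that sum, and the 4 did not move together. In Line8 against WT 1 was called higher and 0 lower, where 27.3% of all tested rows were called. For the mean of both lines 0 were higher and 1 lower, against 24.3%. An ID written down as a root gene had 0 counts throughout. An ID written down as a seed storage gene was at 0.566 to 1.41 CPM in Line7, 1.20 to 3.19 CPM in Line8 and 0.498 to 1.04 CPM in WT. It was called higher in Line8 against WT (log2 fold change 1.52, adjusted p = 0.0166 by edgeR), and its part in the other results was not tested.

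NAP fell in Line8 and in the mean of both lines, NAC6 fell in the same comparisons, and SNAC1, the most evenly expressed of the 5, stayed within about the same range in all 3 groups. NAC5 was lower in Line8 without passing the test. NAC10 was near the detection limit and rested on single libraries. No member rose in any comparison. In edgeR's quasi-likelihood test, 2 of 5 members were called in Line8 against WT, both lower, where 27.3% of all tested rows were called and 11.8% were called lower. For the mean of both lines 2 of 5 were called, both lower, against 24.3% of all tested rows called and 10.1% called lower. In Line7 against WT edgeR called 0 of 5, while 6.97% of all rows were called. NAP alone had an unadjusted p below 0.05 there, a level for which no share of all rows was taken. DESeq2 and limma-voom also called 0 of 5, where they called 15% and 0.109% of all rows. Without the library labelled Line7 replicate 2, edgeR called 2 of 5 in Line7, both lower, where 25.2% of rows were called and 10.2% called lower. It then called 3 of 5 for the mean of both lines, all lower, against 35% of rows called and 16.6% called lower. Both of these counts include NAC10, which was called only once that library was dropped and then had a single count in each Line7 library left. With only 5 members, no count stands clearly apart from these shares.

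**Figure D1:**
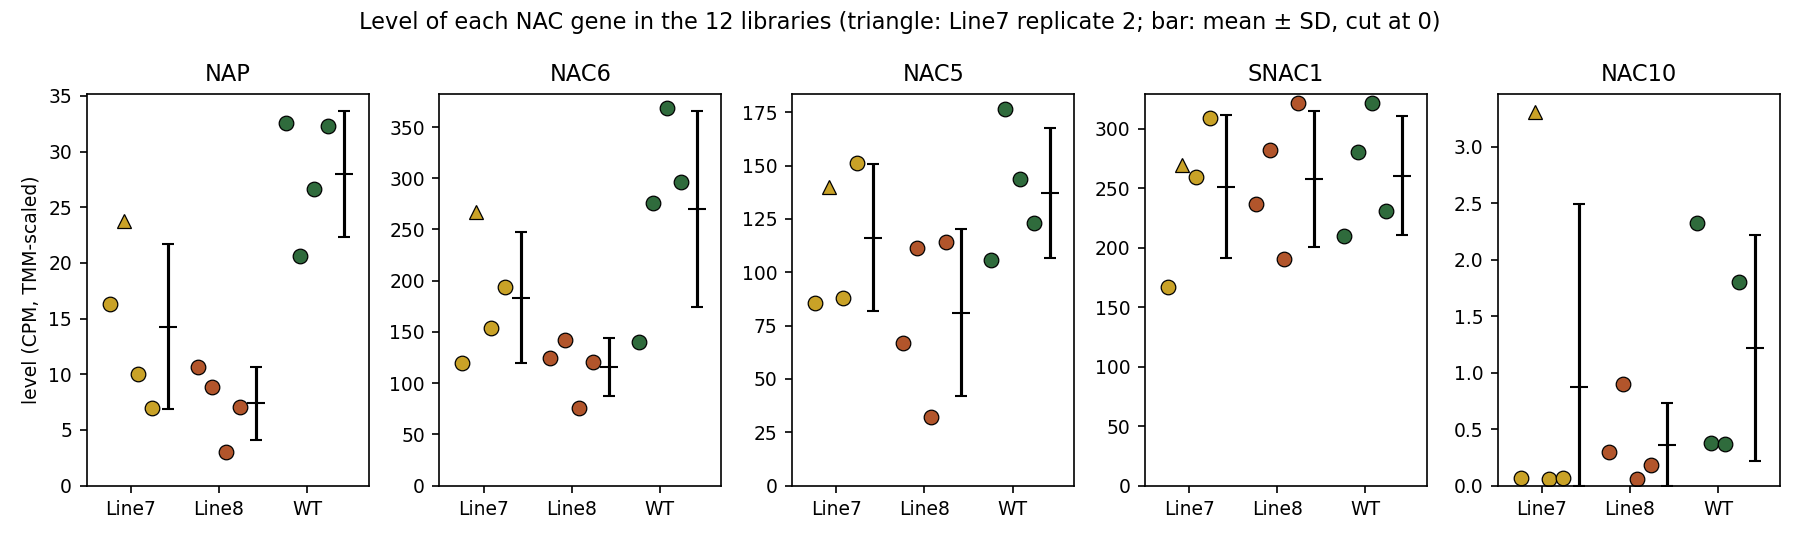
Level of each NAC gene (CPM after TMM scaling, each panel with its own axis from 0) in the libraries of Line7, Line8 and WT, with the group mean and SD beside the points and the library labelled Line7 replicate 2 as a triangle. NAP in Line8 lies between 3.02 and 10.7 CPM, below every WT library, whereas the groups of SNAC1 overlap throughout.

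NAP, which in rice promotes age-dependent leaf senescence and is induced by abscisic acid, showed the widest separation between groups. It was at 16.4, 23.8, 10.1 and 6.98 CPM in Line7 replicates 1 to 4, at 10.7, 8.84, 3.02 and 7.05 CPM in Line8 replicates 1 to 4, and at 32.6, 20.6, 26.7 and 32.3 CPM in WT replicates 1 to 4. All 4 Line8 libraries and 3 of 4 Line7 libraries lay below the lowest WT library. The library labelled Line7 replicate 2 lay inside the WT range.

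The mean NAP level was 7.40 ± 3.28 CPM in Line8 (SD, n = 4), against 28.0 ± 5.66 CPM in WT, a 3.78-fold lower level (log2 fold change -1.92, SE 0.403, adjusted p = 0.00567). Exact two-sided permutation of the libraries gave p = 0.0286, the minimum for 4 against 4. Only 1.77% of tested rows had a lower log2 fold change in Line8. The Line8 call held with each library left out in turn, at log2 fold changes of -2.10 to -1.62 (adjusted p from 0.00163 to 0.0192).

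In Line7 NAP averaged 14.3 ± 7.42 CPM (SD, n = 4), a log2 fold change against WT of -0.97 (SE 0.390, adjusted p = 0.135). It missed the threshold, with an unadjusted p of 0.0274 and 0.0571 by exact permutation. Without the library labelled Line7 replicate 2 the other 3 libraries averaged 11.1 ± 4.78 CPM. The log2 fold change of NAP in Line7 was then -1.33 (SE 0.385, adjusted p = 0.0252), with a library of WT-like NAP level taken out. In edgeR the mean of both lines gave -1.44 (SE 0.325, adjusted p = 0.00897), or -1.63 without that library (adjusted p = 0.00137). NAP libraries rested on 51 to 546 counts each.

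NAC6, a stress-responsive NAC that in rice is induced by cold, drought, salt and wounding, was abundant and varied more within WT than NAP did. Its level was 120, 267, 154 and 194 CPM in Line7 replicates 1 to 4, 125, 142, 76.1 and 121 CPM in Line8, and 140, 276, 368 and 297 CPM in WT. WT replicate 1 was the low library of its group, within the range of both lines. Line8 replicate 2 was just above it, so 3 of 4 Line8 libraries lay below every WT library.

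NAC6 averaged 116 ± 28.2 CPM in Line8 and 270 ± 95.5 CPM in WT (SD, n = 4 each), a 2.33-fold lower level in Line8 (log2 fold change -1.22, SE 0.315, adjusted p = 0.0142). The exact permutation p was 0.0571, above the threshold. The edgeR call in Line8 was lost without WT replicate 3 (-1.02, adjusted p = 0.0546) and held with each of the other 11 libraries left out. Line7 averaged 184 ± 63.6 CPM (SD, n = 4), with a log2 fold change of -0.56 against WT (SE 0.312, adjusted p = 0.270) that did not pass. Without the library labelled Line7 replicate 2 it was -0.80 (SE 0.309, adjusted p = 0.0780), again short of the threshold.

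NAC6 in the mean of both lines had a log2 fold change of -0.89 (SE 0.262, adjusted p = 0.0280 by edgeR). That call was lost without any single library among WT replicates 2, 3 and 4 and Line7 replicates 1, 3 and 4, with adjusted p from 0.0537 to 0.121. It was -1.01 (adjusted p = 0.00725) without the library labelled Line7 replicate 2.

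**Figure D2:**
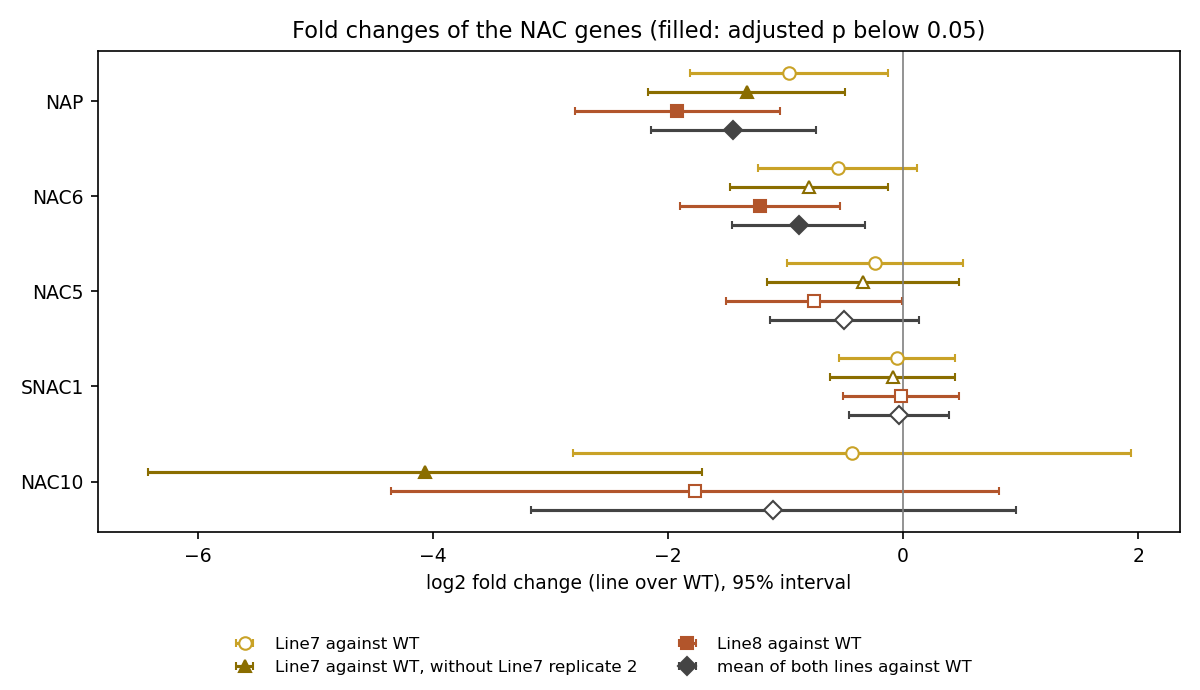
Log2 fold change over WT of each NAC gene with its 95% interval from edgeR, for Line7, Line7 without the library labelled replicate 2, Line8, and the mean of both lines. Filled symbols passed an adjusted p of 0.05. The intervals of NAP in Line8 (-2.79 to -1.05) and of NAC6 in Line8 (-1.90 to -0.54) exclude 0, those of SNAC1 are centred near 0, and those of NAC10, with few counts, are the widest.

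NAC5, which in rice is induced by abscisic acid and salt and has been linked to senescence and to genes for protective LEA proteins, was lower in Line8 by an amount that did not pass. It was at 85.8, 140, 88.0 and 151 CPM in Line7 replicates 1 to 4, at 67.0, 111, 32.3 and 114 CPM in Line8, and at 106, 177, 144 and 123 CPM in WT. Line8 replicates 1 and 3 and Line7 replicates 1 and 3 lay below every WT library, and the other 4 line libraries inside the WT range.

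The group means of NAC5 were 116 ± 34.3 CPM in Line7, 81.2 ± 39.1 CPM in Line8 and 137 ± 30.5 CPM in WT (SD, n = 4 each). The log2 fold change was -0.76 in Line8 (SE 0.347, unadjusted p = 0.0476, adjusted p = 0.119 by edgeR) with an interval of -1.51 to -0.0091. In Line7 it was -0.24 (SE 0.345, adjusted p = 0.694), and -0.34 (adjusted p = 0.543) without the library labelled replicate 2. The Line8 value leaned on replicate 3, which lies apart on the second principal component, and was -0.45 (adjusted p = 0.240) without it.

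SNAC1, which in rice is induced by drought mainly in guard cells and raises drought tolerance when overproduced, showed no difference between groups past any test. Its level was 167, 270, 260 and 309 CPM in Line7 replicates 1 to 4, 237, 282, 190 and 322 CPM in Line8, and 210, 280, 321 and 231 CPM in WT. The 3 groups covered nearly the same span. Means were 251 ± 60.1 CPM in Line7, 258 ± 56.9 CPM in Line8 and 261 ± 50.1 CPM in WT (SD, n = 4 each).

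The log2 fold change of SNAC1 was -0.05 in Line7 (95% interval -0.54 to 0.44, adjusted p = 0.907), -0.089 in Line7 without the library labelled replicate 2 (-0.62 to 0.44, adjusted p = 0.823) and -0.016 in Line8 (-0.51 to 0.48, adjusted p = 0.966) by edgeR. The intervals exclude a fall as large as that fitted for NAP in Line8, but do not exclude changes of the size fitted for NAC5 in Line7. The sign of such small values turned with the scaling method. The SNAC1 coefficient of variation was 23.9% in Line7, 22.1% in Line8 and 19.2% in WT, against 51.9%, 44.3% and 20.2% for NAP.

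NAC10, known in rice for root expression and for drought tolerance when driven in roots, was barely detected in these leaves. It had 1, 59, 1 and 1 counts in Line7 replicates 1 to 4, 5, 13, 1 and 3 counts in Line8, and 39, 7, 6 and 29 counts in WT. In CPM these were 0.0641, 3.31, 0.0629 and 0.0691 in Line7, 0.299, 0.898, 0.0592 and 0.181 in Line8, and 2.33, 0.379, 0.369 and 1.81 in WT. A count of 3 corresponds to 0.163 to 0.207 CPM, so several line libraries are at or under what can be told from 0.

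By edgeR the log2 fold change of NAC10 was -0.43 in Line7 (SE 1.10, adjusted p = 0.833), -1.77 in Line8 (SE 1.20, adjusted p = 0.286) and -1.10 in the mean of both lines (SE 0.955, adjusted p = 0.418). None passed. The library labelled Line7 replicate 2 alone held 59 of the 62 Line7 counts, above the highest WT library. Without it, 3 counts remained over 3 Line7 libraries, against 81 over 4 WT libraries, a ratio of 0.0545 after scaling (95% exact counting interval 0.0110 to 0.165, counting error only), and edgeR then called the gene in Line7 (log2 fold change -4.07, SE 1.09, adjusted p = 0.0170) and in the mean of both lines (-2.92, adjusted p = 0.00896). The fitted size depends on how such low counts are handled.

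NAC10 lies in a region that rice carries in a near-identical form on chromosome 12, and reads may have been split between copies. Os12g0123700, the ID written down as its copy (likewise unnamed in the files), was at 3.21, 4.82, 1.07 and 0.899 CPM in Line7 replicates 1 to 4, 2.51, 5.32, 1.19 and 4.09 CPM in Line8, and 6.50, 1.90, 2.52 and 3.24 CPM in WT. All 3 groups overlapped in this row. With both rows summed, the counts were 83 in Line7 without the library labelled replicate 2 and 318 in WT, a ratio of 0.384 (95% exact interval 0.298 to 0.490). They were 229 in Line8 against the same 318 in WT, a ratio of 0.752 (0.632 to 0.894). These intervals cover counting error only. With all 12 libraries, edgeR called the summed row in neither line (adjusted p = 0.678 in Line7 and 0.689 in Line8).

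**Figure D3:**
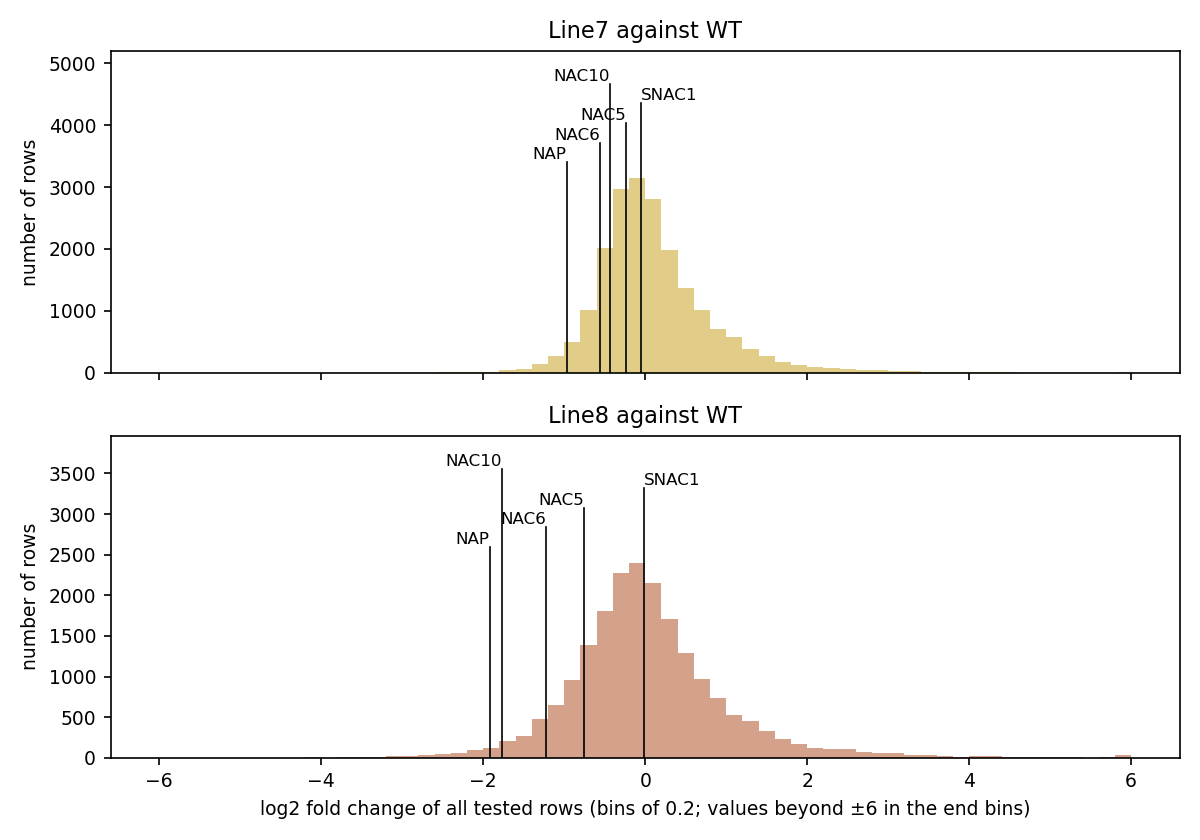
Number of tested rows by log2 fold change for Line7 over WT and Line8 over WT, with the value of each NAC gene marked by a line. SNAC1 lies in the middle of both distributions, and NAP lies in the lower tail, with 3.23% of rows lower in Line7 and 1.77% lower in Line8.

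Against all rows, NAP, NAC6, NAC5 and the sparsely counted NAC10 lay on the low side of the distribution in both lines, and SNAC1 near its middle. The median log2 fold change of the 5 was -0.43 in Line7 and -1.22 in Line8, where the median of all 20217 tested rows was -0.0091 and -0.066. The Line7 median is NAC10's own value, and the Line8 median is NAC6's own value. The Line7 median was -0.80 without the library labelled Line7 replicate 2, where all rows had a median of -0.026. NAC6 had 12.0% of rows below it in Line7 and 6.52% in Line8, NAC5 had 31.9% and 16.1%, and SNAC1 had 46.7% and 53.0%. The comparisons of each line share the WT libraries, so low values in both lines are not independent.

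Between the lines, edgeR called 0 of 5 members in Line8 against Line7. NAP alone had an unadjusted p below 0.05, a level for which no share of all rows was taken. DESeq2 and limma-voom called 0 as well. Of all tested rows edgeR called 0.0247% in that comparison, DESeq2 2.34% and limma-voom 0.00989%. NAP was lower in Line8 by a log2 fold change of -0.95 (95% interval -1.81 to -0.094, unadjusted p = 0.0322, adjusted p = 0.273). NAC6 gave -0.66 (-1.34 to 0.012, adjusted p = 0.316) and NAC5 -0.52 (-1.27 to 0.23, adjusted p = 0.455). Without the library labelled Line7 replicate 2 these were -0.59 for NAP, -0.42 for NAC6 and -0.42 for NAC5, with adjusted p of 0.535, 0.577 and 0.653. The order of the group means was Line8, then Line7, then WT for NAP, NAC6 and NAC5, and the difference between neighbouring Line8 and Line7 did not pass the adjusted threshold in any of them.

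**Figure D4:**
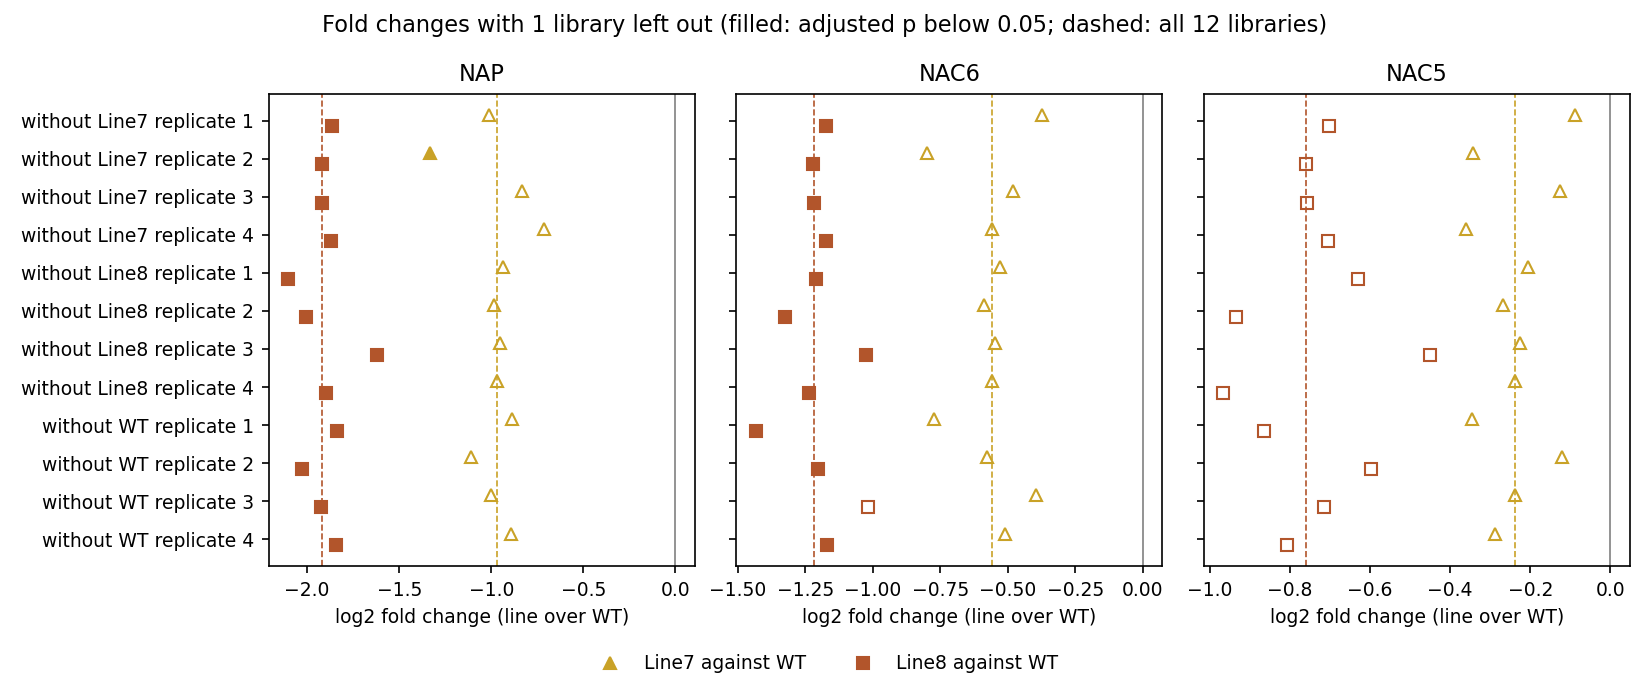
Log2 fold change over WT of NAP, NAC6 and NAC5 with each of the 12 libraries left out in turn, in Line7 (triangles) and Line8 (squares), with dashed lines at the value from all libraries. Filled symbols passed an adjusted p of 0.05. NAP in Line8 is filled in every row, NAC6 in Line8 in all but the row without WT replicate 3, and NAP in Line7 in the row without Line7 replicate 2.

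Genes connected with these factors were counted from lists of locus IDs written from general knowledge, which the files do not pair with names. Of 8 IDs for other NAC factors tied to stress or senescence, 7 were tested. In Line8 against WT 1 fell and 0 rose, and in Line7 0 were called (1 fell without the library labelled Line7 replicate 2). Over all tested rows 11.8% fell in Line8, 6.97% were called in Line7 and 10.2% fell in Line7 without that library, so 1 of 7 is near the background. The median log2 fold change of the list was -0.28 in Line7 (-0.50 without that library) and -0.43 in Line8. The ID that fell, Os07g0225300, was singled out after its values were seen, with a log2 fold change of -2.20 in Line8 (SE 0.619, adjusted p = 0.0205) and -0.78 in Line7 (adjusted p = 0.420, or -1.68 with an adjusted p of 0.0313 without the library labelled replicate 2).

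Of 6 IDs for chlorophyll breakdown, a process that NAP activates in ageing rice leaves, all 6 were tested, and they did not move in a single direction. In Line8 2 rose and 2 fell, and in Line7 1 rose and 0 fell, with 1 rising and 3 falling once the library labelled Line7 replicate 2 was left out. These counts stand beside 27.3% of all tested rows called in Line8 (11.8% lower), 6.97% in Line7 and 25.2% in Line7 without that library (10.2% lower). Medians were -0.36 in Line7 (-0.53 without that library) and -0.48 in Line8. Os03g0654600 rose in both lines (log2 fold change 1.90 in Line7, adjusted p = 0.0157, and 2.40 in Line8, adjusted p = 0.00203). Os09g0532000 (-1.27, adjusted p = 0.0142) and Os03g0146400 (-0.70, adjusted p = 0.0197) fell in Line8. In Line7 they were at -0.73 (adjusted p = 0.168) and -0.53 (adjusted p = 0.105), and at -1.17 (adjusted p = 0.00581) and -0.75 (adjusted p = 0.00390) without the library labelled replicate 2.

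Of 8 IDs for abscisic acid synthesis and response, 4 had enough counts to test. In Line8 2 fell and 0 rose, where 27.3% of all tested rows were called and 11.8% fell. Of these 2, 1 had only 0 to 5 counts per Line8 library, against 8 to 43 in WT. For the mean of both lines 0 were called, where 24.3% of rows were. There 2 fell without the library labelled Line7 replicate 2, where 16.6% of rows fell. In Line7 edgeR called 0, where 6.97% of rows were called, and 0 without the library labelled replicate 2, where 25.2% of rows were. With all 12 libraries 0 were at an unadjusted p below 0.05 in Line7. The medians were -0.18 in Line7 (-0.31 without that library) and -0.63 in Line8.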

How the data were processed

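The deposited table holds raw read counts for each annotated row in each library. How reads were aligned and counted, the genome build and the strand setting were not stated by the authors in the sources used here, so reads of overlapping or antisense genes cannot be told apart. Each column matched the description of 1 sample. Over 66 pairs of libraries the chi-square statistic per degree of freedom was 14.3 or more, where resequencing of a library gives about 1. Members and related lists were chosen with earlier results of these data known. Rows were named by rule: the 5 members, the target's ID, of the rows most like each member those of highest rank correlation (at most 2 with a fold change above 0 and 2 below), and at most 2 rising and 2 falling IDs of the lists. Os12g0123700 is named as the copy of NAC10, and Os07g0225300 was added after its values were seen.

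The counts went into edgeR 4.0.16 (R 4.3.3) with filterByExpr (20217 rows), TMM, and a robust quasi-likelihood fit of group over all 12 libraries, Benjamini-Hochberg adjusted over all tested rows, threshold 0.05. An SE is the fold change over the root of its F statistic. Single values were compared by exact two-sided permutation of log2(CPM + 1). The pipeline was tested on simulated data. Alternatives were RLE, upper-quartile and no size factors, no filter and a filter of 1 CPM in 4 libraries, DESeq2 1.42.0, limma 3.58.1 voom without and with sample weights, only the libraries compared, a replicate block, NAC10 summed with its copy, and each library left out. Leaving out 3 libraries together, and ratios within a library, were added after the data were seen. Replicate numbers were not taken as pairs: same-numbered libraries correlated at -0.427 to 0.382 in their deviations from group means.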

Additional observations from a re-analysis of the deposited data

Results flagged for a closer look

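NAC10 in the library labelled Line7 replicate 2 stood at 3.31 CPM, while the other 3 Line7 libraries had a single count each. Its gap to the nearest of them was 0.998 of the group's range, past Dixon's 95% limit for 4 samples. Since those 3 values differ only through library size, nearly any higher count would have passed that limit. The same library held the WT-like target level described above. Of 18 groups of values examined (the 5 members and the target in 3 groups each) this was the only 1 so marked, and chance marks about 1 in 20 such groups.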

How the results depend on the processing

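Depth limits NAC10, with 1 to 59 counts per library. The number of members called was 0 in Line7 against WT, 3 with limma-voom sample weights (NAP, NAC6 and NAC10 lower, where 41.6% of all rows were called) and 2 without 3 libraries that lie apart (Line7 replicate 2, WT replicate 1 and Line8 replicate 3, with 32.9% of rows called). Those 2 are of 4 members, since NAC10 had too few counts to be tested there. NAC10 was also untested with the 1 CPM filter and with only the libraries compared. With a single library left out it was 0 to 2 in Line7, 1 to 2 in Line8, 1 to 3 for the mean of both lines and 0 to 0 between the lines, while the share of all rows called ran from 0.0341 to 25.2% in Line7, 16.8 to 31.7% in Line8, 11.2 to 35% for the mean and 0 to 0.0342% between the lines. The labels do not give the replicate number as a pairing. With it as a block, NAC5 was also called in Line8 by edgeR (log2 fold change -0.88, adjusted p = 0.0484). There 4826 of all rows (23.9%) were called in Line8, 2097 of them lower. Calls over all rows with the block numbered 475 in Line7 and 0 between the lines, against 1409 and 5 without it. In 4 of 12 same-numbered pairs the library of the first group correlated best with its own number, among the 4 libraries of the other group. SNAC1, never called, changed sign in Line8 with RLE (0.0044), a 1 CPM filter (0.024), DESeq2 (0.0044), sample weights (0.034), only the libraries compared (0.033) and the 3 libraries left out (0.060), in Line7 with library totals (0.0014), in the mean of both lines with a 1 CPM filter (0.0035), and between the lines with upper-quartile factors (-0.017) and library totals (-0.033). Leaving out single libraries gave SNAC1 -0.14 to 0.13 in Line7, -0.14 to 0.15 in Line8, -0.12 to 0.084 for the mean and -0.096 to 0.18 between the lines. NAC10 between the lines was 0.087 with limma-voom, 1.40 with sample weights and 0.094 with its copy added, and -2.26 to 2.30 with a library left out. In Line7 it was -4.07 to 0.084. The cause was not tested. Of 464 alternative values of member fold changes, 418 kept direction and side of the threshold. Most of the 464 belong to comparisons not called in the main fit, so the 418 says little about how stable the calls are. With upper-quartile factors 46.3% of the calls over all rows in Line8 were higher, against 56.8% with TMM.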

Other observations

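Ratios of counts within a library do not depend on size factors, and were computed after the data were seen (16 comparisons of 4 ratios). Per 100 SNAC1 counts, NAP had 9.79, 8.82, 3.88 and 2.26 counts in Line7 replicates 1 to 4, 4.52, 3.13, 1.59 and 2.19 in Line8, and 15.5, 7.35, 8.29 and 14.0 in WT. The Line8 ratios lay below every WT ratio, by 4.05-fold on the geometric mean. NAC6 per 100 SNAC1 counts was 37.4 to 52.7 in Line8 and 66.5 to 129 in WT, and NAC5 per 100 SNAC1 counts was 17.0 to 39.5 in Line8 and 44.7 to 63.0 in WT. Between the lines, NAC6 per 100 SNAC1 counts was 37.4 to 52.7 in Line8 and 59.2 to 99.2 in Line7, without overlap. Each of these 4 comparisons had an exact two-sided permutation p of 0.0286, the smallest possible, and 0.0762 after Benjamini-Hochberg adjustment over the 16, which does not pass. For NAC6 between the lines the exact permutation p was 0.0571 without the library labelled Line7 replicate 2. In Line7 against WT the ratio to SNAC1 of NAP, NAC6 and NAC5 gave exact permutation p of 0.171, 0.143 and 0.371, and of 0.114, 0.0857 and 0.314 without that library. Such a ratio shows unequal change of its genes and not which of them changed.

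As a description over 12 libraries that share the WT and line groups, the members did not all follow the same pattern. Spearman's rho was 0.804 between NAC6 and NAC5, 0.727 between NAC10 and NAP, 0.671 between SNAC1 and NAC5, and -0.203 between SNAC1 and NAP. NAC10 had a single count in several line libraries, so its ranks among them, and every rho that uses them, partly reflect library size. Among 20217 tested rows the most like NAC6 was Os11g0151700 (rho 0.993), the most like NAP was Os08g0191000 (rho 0.972) and the most like SNAC1 was Os02g0705100 (rho 0.923). Rows with a rho of at least 0.9 numbered 147 for NAC6, 88 for NAP, 72 for NAC5, 22 for NAC10 and 4 for SNAC1.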
